A study of Mus musculus with 6 samples.

Results

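Growth factors and cytokines that act on neurons and glia, 9 genes chosen by symbol (Bdnf, Fgf1, Fgf2, Hgf, Lif, Osm, Hbegf, Gdf15 and Inhba), were followed in cultured microglia. Each symbol matched exactly 1 of the 35275 gene rows of the count table. Bulk RNA from 6 samples of primary C57/BL6 mouse microglia, the macrophages that live within brain tissue, was sequenced. In 3 samples, labelled Treg co-cultured, the microglia shared wells for 2 days with regulatory T cells (Tregs, T cells that restrain immune responses) held in transwell inserts. Before that the Tregs had spent 24 hours above slices of brain in the tMCAO stroke model, in which the middle cerebral artery is blocked for a time and reopened. The slices were cut 5 days after that stroke. The other 3 samples, labelled Control, were microglia without Tregs. No insert or slice is recorded for the controls, so effects of the Tregs, of the insert and of material carried over from the slices cannot be told apart. The labels do not tell whether replicates were separate cultures or animals, and p values therefore reflect no more than the spread among these libraries, which could be technical.

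Trophic factors keep neurons and glia alive, guide their growth and take part in repair after injury. Microglia are a local source of such factors. Fibroblast growth factors (FGFs), hepatocyte growth factor (HGF) and heparin-binding EGF-like growth factor (HB-EGF) act through receptor tyrosine kinases. Leukemia inhibitory factor (LIF) and oncostatin M (OSM) are cytokines of the interleukin-6 family that signal through the shared chain gp130. GDF15 and activin A, the dimer of the Inhba product, belong to the TGF-beta superfamily, and brain-derived neurotrophic factor (BDNF) is a neurotrophin.

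Fgf1 and Lif rose in Treg co-cultured microglia, while Hgf, Hbegf and Gdf15 fell. Osm and Inhba did not pass the test, and Bdnf and Fgf2 were too low to be tested. Of 7 members tested with edgeR's quasi-likelihood test (Benjamini-Hochberg adjusted p below 0.05 over all genes), 5 were called (71.4%), against 50.9% of the 13274 genes tested. The 2 members called higher (28.6%) stood against 25.9% of all tested genes called higher, and the 3 called lower (42.9%) against 25.0% called lower. The libraries of the 2 groups did not overlap for 4 of the 7 (57.1%), which is near the 57.2% of all tested genes. With upper-quartile scaling 40.0% of all calls were in the higher direction and with library totals alone 41.0%, against 50.8% with the TMM scaling used here. The direction of the 5 called members was the same under all 3 scalings.

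**Figure D1:**
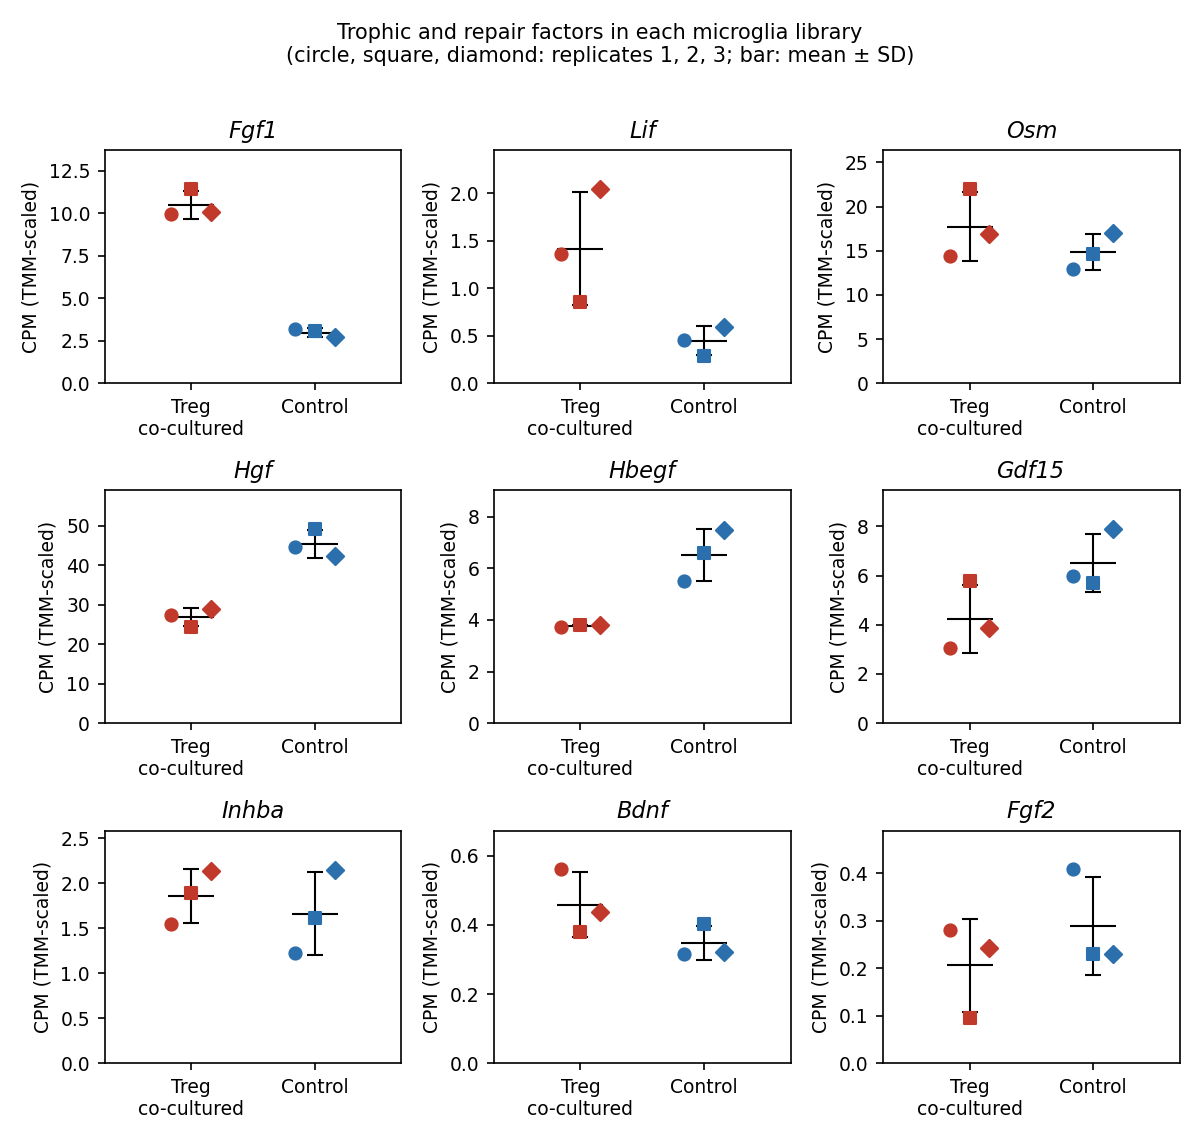
Level of each of the 9 genes in every library, in CPM (counts scaled to library size with TMM factors, linear axis from 0), with Treg co-cultured libraries on the left and Control libraries on the right of each panel. Points are libraries, and horizontal and vertical bars are the mean and SD (n = 3). Fgf1 and Lif sit higher in all Treg co-cultured libraries, Hgf and Hbegf sit lower in all of them, and Gdf15, Osm, Inhba, Bdnf and Fgf2 overlap between groups.

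The deposited totals were 20987384 to 22084542 counts in the Treg co-cultured libraries and 16972758 to 21465960 counts in the Control libraries. All 12 microglia markers on a list had counts, and their summed level was 6613 to 7045 CPM in Treg co-cultured and 6959 to 7418 CPM in Control libraries. Mitochondrial transcripts held 0.636% to 0.772% of counts in Treg co-cultured libraries, against 1.32% to 1.38% in Control libraries, and ribosomal protein transcripts 1.15% to 1.34%, against 1.88% to 2.09%. Markers of monocytes and border macrophages summed to 576 to 718 CPM after co-culture, against 294 to 302 CPM in Control, most of it from Mrc1 and Pf4. Of the 10 genes on that list 4 could be tested, and 3 were called higher and none lower. Of the monocyte markers, Ly6c2, Chil3 and Plac8 were at or near 0 in every library. Ccr2 had 24 to 39 counts in each library (1.51 CPM on average after co-culture, against 1.52 CPM in Control) and was not called. Of 12 T cell markers, Trac and Ctla4 had no count in any library, and the list summed to 49.0 to 53.5 CPM after co-culture, against 116 to 130.5 CPM in Control, most of it from Cd28. Of 4 tested T cell markers 1 was called higher, Cd4 (6.41 CPM on average, against 2.53 CPM in Control), and 2 lower, Cd28 and Foxp3. Cd3e, which was not tested, had 10, 2 and 3 counts in Treg co-cultured replicates 1, 2 and 3, against 0 in every Control library. Oligodendrocyte lineage markers summed to 167 to 182 CPM, against 266 to 283 CPM in Control, with 7 of 9 called lower and 1 higher. Neuron markers summed to 26.7 to 28.3 CPM, against 8.43 to 13.75 CPM in Control, with 2 of 6 called higher, Syn1 and Map2, and 1 lower. Fibroblast and mural markers summed to 23.7 to 34.3 CPM, against 40.1 to 46.2 CPM in Control, with 1 of 5 tested called higher and 1 lower. Endothelial markers summed to 94.4 to 109.8 CPM, against 103.8 to 111.8 CPM in Control, and of 4 tested 3 were called higher (Kdr, Pecam1 and Cdh5) and 1 lower (Flt1), while Cldn5 and Tek were near 0. Astrocyte markers summed to 36.8 to 45.7 CPM, against 35.4 to 42.5 CPM in Control, with 2 of 9 called higher and 2 lower. Whether any of these differences plays a part in the members' values was not tested. In bulk RNA, fewer cells of a type and less RNA per cell cannot be told apart.

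Fgf1 rose clearly above the spread between replicates. FGF1 binds every FGF receptor, lacks a signal peptide and is known to act on neurons and on oligodendrocyte precursors. It was at 9.96, 11.4 and 10.1 CPM in Treg co-cultured replicates 1, 2 and 3, against 3.17, 3.06 and 2.70 CPM in Control replicates 1, 2 and 3. The lowest co-cultured library lay well above the highest control, and the spread within each group was small. On the log2 scale the change, co-cultured minus control, was 1.81 ± 0.15 (SE), a 3.52-fold rise with an adjusted p of 2.91e-12, and it was 1.01 on the log2(FPKM + 1) scale, which understates low genes. Of all 13274 tested genes, 281 had a larger log2 fold change. Fgf1 (chromosome 18, 38838673 to 38929472, minus strand, GRCm38) shares no exonic base with the genes that overlap it in GENCODE M21.

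Fgf2, the basic FGF that drives proliferation of oligodendrocyte precursors, was near the detection floor, defined as fewer than 10 counts in every library. It had 6, 2 and 5 counts in Treg co-cultured replicates 1, 2 and 3, and 9, 4 and 5 counts in Control replicates 1, 2 and 3. These counts overlapped between the groups. Summed over libraries and corrected for depth, the ratio of co-cultured to control was 0.701, with a 95% counting interval of 0.316 to 1.51. That interval covers counting error only and includes both a fall and a rise, so neither was shown at this depth. Fgf2 (chromosome 3, 37348346 to 37410108, plus strand) shares 640 of its 6782 exonic bases with Nudt6 on the opposite strand and 255 with Gm43439 on its own. No strand setting is stated for the counting, so reads from the part shared with Nudt6 may belong to either gene.

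FGF receptors, through which FGF1 and FGF2 act, were sparse in these libraries. Fgfr1 fell to 4.25 ± 0.0760 CPM in Treg co-cultured microglia, against 5.74 ± 0.447 CPM in Control (SD, n = 3 per group here and below; adjusted p = 0.0198 with edgeR). Fgfr2 fell to 0.952 ± 0.137 CPM, against 1.96 ± 0.265 CPM in Control (adjusted p = 0.00436), and Fgfr3 to 0.444 ± 0.0575 CPM, against 0.908 ± 0.207 CPM (adjusted p = 0.0413). Fgfrl1, a receptor that lacks the kinase domain, fell to 3.71 ± 0.717 CPM, against 5.21 ± 0.293 CPM (adjusted p = 0.0186). Fgfr4 had no count in any co-cultured library and a level of at most 0.0907 CPM in Control. The calls of Fgfr1, Fgfr3 and Fgfrl1 were lost in several alternatives, with highest adjusted p values of 0.0958, 0.171 and 0.122, whereas that of Fgfr2 held in all 16 (highest 0.0234). Without Control replicate 2 the log2 fold change was -0.43 for Fgfr1 (adjusted p = 0.0504 with edgeR), -1.10 for Fgfr3 (0.0601) and -0.45 for Fgfrl1 (0.0667), against -0.43, -1.03 and -0.48 with all libraries. These estimates thus changed little where the call was lost. Without Control replicate 3 the log2 fold change was -0.38 for Fgfr1 (adjusted p = 0.0756) and -0.82 for Fgfr3 (0.171). Without Treg co-cultured replicate 2 it was -0.34 for Fgfrl1 (0.122), and Fgfr3 lost its call without each co-cultured replicate, at -0.93 to -1.10 (0.0703 to 0.116).

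S100a13, which assists the release of FGF1, fell to 9.86 ± 1.495 CPM, against 14.6 ± 1.60 CPM in Control (log2 fold change -0.57, adjusted p = 1.72e-04 with edgeR). Fibp, an intracellular protein that binds FGF1, fell to 31.0 ± 1.27 CPM, against 39.5 ± 1.56 CPM in Control (log2 fold change -0.35, adjusted p = 6.88e-05). Both thus ran opposite to Fgf1 itself.

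Hgf was the most abundant member, and it fell. HGF acts through the receptor MET on neurons, glia and many epithelia, and it is released as an inactive precursor that needs proteolytic cleavage. Hgf was at 27.4, 24.4 and 28.9 CPM in Treg co-cultured replicates 1, 2 and 3, against 44.6, 49.05 and 42.3 CPM in Control replicates 1, 2 and 3. Every co-cultured library was below every control, and the spread within either group was small beside the gap. The log2 fold change was -0.75 ± 0.08 (SE), 1.68-fold lower, with an adjusted p of 3.38e-10, and 1210 of the 13274 tested genes had a more negative value. Hgf lies on chromosome 5, 16553495 to 16620152, plus strand, and 484 of its 7186 exonic bases are shared with the annotated locus Gm43489. The window around its start, 250 bases before to 50 after (RefSeq, GRCm38.p6, chr5:16553245-16553544, plus strand), is shown because Hgf is the most abundant member. Capitals mark the 50 bases from the start.
Hgf: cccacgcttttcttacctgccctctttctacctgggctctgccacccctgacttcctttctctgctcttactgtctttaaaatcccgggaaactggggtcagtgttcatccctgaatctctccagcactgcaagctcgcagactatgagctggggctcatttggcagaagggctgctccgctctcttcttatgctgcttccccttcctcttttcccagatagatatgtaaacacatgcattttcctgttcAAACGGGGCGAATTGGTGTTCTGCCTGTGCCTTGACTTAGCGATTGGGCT

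Several proteases that can cleave pro-HGF were lower together with it. Plau, the urokinase-type plasminogen activator, fell to 256 ± 44.4 CPM in Treg co-cultured microglia, against 820 ± 40.1 CPM in Control (3.20-fold lower, adjusted p = 5.20e-05 with edgeR). St14, which encodes the membrane protease matriptase, fell to 19.0 ± 1.04 CPM, against 49.1 ± 0.830 CPM in Control (2.58-fold lower, adjusted p = 3.17e-17). Plat, the tissue-type plasminogen activator, fell to 0.821 ± 0.249 CPM, against 1.94 ± 0.637 CPM (adjusted p = 0.00218). Hgfac, the dedicated HGF activator, had no count in any co-cultured library and at most 0.0917 CPM in Control. The receptor Met was at 2.11 ± 0.253 CPM, against 1.90 ± 0.206 CPM in Control, and was not called (adjusted p = 0.621). By Pearson correlation of log2 CPM over the 6 samples, the genes most like Hgf were Paip2b (0.999), Trim2 (0.999) and Cd109 (0.997). This likeness is mostly the shared difference between groups, since 1077 genes exceeded 0.95.

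Hbegf also fell. HB-EGF is made as a membrane-anchored precursor, is shed by metalloproteases and binds the EGF receptor and ERBB4. It was at 3.74, 3.79 and 3.79 CPM in Treg co-cultured replicates 1, 2 and 3, against 5.49, 6.58 and 7.47 CPM in Control replicates 1, 2 and 3. The co-cultured libraries were nearly equal and all lay below the controls, which were more spread. The fitted log2 fold change was -0.79 ± 0.16 (SE), 1.72-fold lower, with an adjusted p of 1.15e-04. Hbegf lies on chromosome 18, 36504927 to 36515805, minus strand, and no other annotated gene overlaps it.

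Genes around HB-EGF changed in both directions. Cd9, a tetraspanin that associates with the membrane-anchored precursor, fell to 56.1 ± 3.66 CPM, against 157 ± 6.57 CPM in Control (2.80-fold lower, adjusted p = 7.80e-21 with edgeR). The sheddase Adam10 rose to 384 ± 32.6 CPM, against 281 ± 7.78 CPM in Control (adjusted p = 2.75e-08). Adam17, another sheddase, was at 257 ± 14.7 CPM, against 279 ± 5.33 CPM in Control, and was not called (adjusted p = 0.0512). Rhbdf2, whose product iRhom2 brings ADAM17 to the cell surface, rose to 101 ± 4.95 CPM, against 78.5 ± 2.69 CPM (adjusted p = 1.33e-06). Tgfa, another ligand of the EGF receptor, fell to 7.76 ± 0.464 CPM, against 20.6 ± 1.78 CPM (2.65-fold lower, adjusted p = 4.13e-13). The sparse ligand Egf fell to 0.111 ± 0.0299 CPM, against 0.622 ± 0.0225 CPM (adjusted p = 0.00112). Egfr was at 2.37 ± 0.599 CPM, against 1.37 ± 0.250 CPM in Control, and was called higher (adjusted p = 0.0168). With DESeq2 that p was 0.0712, without Treg co-cultured replicate 1 it was 0.0538, without Treg co-cultured replicate 3 it was 0.103, and without Control replicate 2 it was 0.0775. Erbb4 was at 1.98 ± 0.554 CPM, against 1.56 ± 0.628 CPM, and was not called (adjusted p = 0.328).

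**Figure D2:**
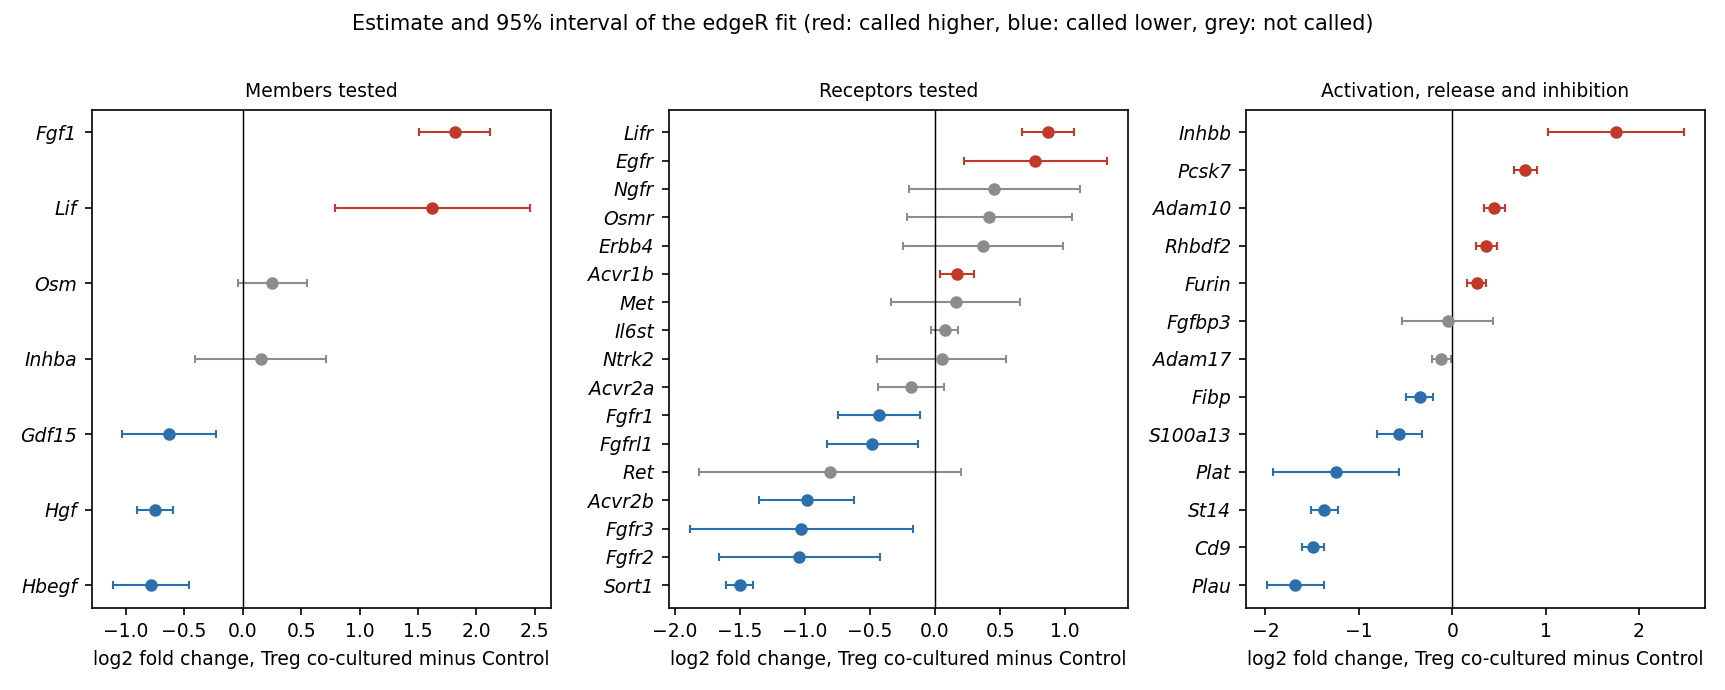
Log2 fold change, Treg co-cultured minus Control, with the 95% interval of the edgeR fit for tested members (left), tested receptors (middle) and tested genes of activation, release and inhibition (right). Each row is a gene, and colour gives the call. Among members Fgf1 (1.81) and Lif (1.62) lie to the right of 0 and Hbegf (-0.79), Hgf (-0.75) and Gdf15 (-0.63) to the left, while Plau (-1.68) is the furthest left of the activation genes.

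Lif rose, whereas Osm, the neighbouring gene, was not called. LIF supports the survival of oligodendrocytes and signals through a pair of LIFR and gp130. It was low throughout, with 29, 18 and 42 counts in Treg co-cultured replicates 1, 2 and 3, against 10, 5 and 13 counts in Control replicates 1, 2 and 3. These correspond to 1.36, 0.852 and 2.04 CPM after co-culture, against 0.454, 0.289 and 0.596 CPM in Control. The groups did not overlap, although the co-cultured libraries differed from each other by more than the controls did. The log2 fold change was 1.62 ± 0.41 (SE), with a 95% interval of 0.79 to 2.46 and an adjusted p of 0.00123. That interval contains the estimate for Fgf1. The call held in each of 16 alternatives (adjusted p at most 0.0276), but on the log2(FPKM + 1) scale the change was 0.27.

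OSM is made mainly by myeloid cells and acts on astrocytes, endothelial cells and neurons. Osm was at 14.4, 21.95 and 16.9 CPM in Treg co-cultured replicates 1, 2 and 3, against 12.9, 14.6 and 17.05 CPM in Control replicates 1, 2 and 3. The groups overlapped, since Control replicate 3 exceeded co-cultured replicates 1 and 3. Its log2 fold change was 0.25 ± 0.14 (SE), with a 95% interval of -0.04 to 0.55 and an adjusted p of 0.145. It passed the threshold without Treg co-cultured replicate 1 (log2 fold change 0.39, adjusted p = 0.0143) and with no filter on low counts (adjusted p = 0.0388). The log2 fold change was 0.07 without Treg co-cultured replicate 2 (adjusted p = 0.694 with edgeR) and 0.16 without Control replicate 1 (0.407).

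Lif and Osm lie side by side on chromosome 11 in GRCm38, both on the plus strand. Osm spans 4236420 to 4241026 and Lif 4257557 to 4272514. Lif starts 16531 bases after the end of Osm, with no annotated gene between them. The window around the Lif start (RefSeq, GRCm38.p6, chr11:4257318-4257617, plus strand) is shown because Lif was called and its neighbour was not. No window was at hand for Osm, so the neighbours cannot be compared in their motifs. Capitals mark a match to TGANTCA, the motif of AP-1 factors, from position -228 relative to the start. Of 32851 promoter windows of this length, 7.81% hold that motif on either strand.
Lif: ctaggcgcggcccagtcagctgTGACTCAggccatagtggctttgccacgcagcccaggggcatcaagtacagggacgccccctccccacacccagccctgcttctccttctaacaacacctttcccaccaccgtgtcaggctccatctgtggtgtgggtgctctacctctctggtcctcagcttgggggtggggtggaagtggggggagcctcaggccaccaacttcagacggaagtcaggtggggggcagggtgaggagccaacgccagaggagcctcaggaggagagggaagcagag

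Among the receptors of these cytokines, Lifr rose to 20.8 ± 1.39 CPM in Treg co-cultured microglia, against 11.4 ± 0.782 CPM in Control (log2 fold change 0.87, adjusted p = 3.73e-09 with edgeR). Lif and the gene of its own receptor chain were thus both higher after co-culture. The shared chain Il6st, which encodes gp130, was at 327 ± 17.5 CPM, against 311 ± 12.7 CPM, and was not called (adjusted p = 0.227). Osmr, the OSM-specific chain, was at 1.59 ± 0.476 CPM, against 1.18 ± 0.164 CPM (adjusted p = 0.278). Of the other gp130 cytokines, Clcf1 rose to 4.71 ± 0.723 CPM, against 3.26 ± 0.325 CPM in Control (adjusted p = 0.0121). Clcf1 lost its call with DESeq2 (adjusted p = 0.0633) and without Treg co-cultured replicate 1 (0.0618 with edgeR).

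Gdf15 fell. GDF15 is a stress-induced member of the TGF-beta superfamily whose receptor, GFRAL with RET, is known from neurons of the hindbrain. It was at 3.04, 5.77 and 3.89 CPM in Treg co-cultured replicates 1, 2 and 3, against 5.99, 5.71 and 7.88 CPM in Control replicates 1, 2 and 3. Co-cultured replicate 2 overlapped with the controls, and the other 2 co-cultured libraries lay below all of them. The log2 fold change was -0.63 ± 0.19 (SE), 1.55-fold lower, with an adjusted p of 0.0088. The call was lost without Treg co-cultured replicate 1 (log2 fold change -0.44, adjusted p = 0.0606) and without Control replicate 3 (-0.47, adjusted p = 0.0687). Gfral had no count in any library. Ret was at 0.397 ± 0.139 CPM, against 0.723 ± 0.424 CPM, and was not called (adjusted p = 0.177).

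Gdf15 is a known target of ATF4 and CHOP, factors of the integrated stress response, and most other genes of that response went the opposite way. Of 12 tested genes on the list 8 were called higher (66.7%, against 25.9% of all genes tested) and 1 lower (8.33%, against 25.0%). The other 3 did not pass: Atf3 (log2 fold change -0.113, adjusted p = 0.0629 with edgeR), Chac1 (0.743, 0.0581) and Vldlr (0.175, 0.6). The list's median log2 fold change was 0.81, against -0.01 over all genes tested. A second gene was called lower without Treg co-cultured replicate 1, without Control replicate 1, with upper-quartile scaling and with library totals alone. Nupr1, a stress-induced chromatin protein, rose to 14.4 ± 1.25 CPM, against 4.09 ± 1.18 CPM in Control (3.52-fold). The transcription factor gene Cebpb rose to 59.2 ± 8.11 CPM, against 18.2 ± 3.04 CPM (3.23-fold). Trib3, a pseudokinase induced by CHOP, rose 3.02-fold to 18.9 ± 2.08 CPM, against 6.19 ± 1.48 CPM. Asns, asparagine synthetase, rose 2.31-fold to 33.5 ± 2.61 CPM, against 14.55 ± 1.29 CPM. Atf4 itself rose to 157 ± 3.77 CPM, against 83.7 ± 5.70 CPM, and Ddit3, which encodes CHOP, to 49.2 ± 5.46 CPM, against 28.6 ± 3.57 CPM. Their adjusted p values with edgeR were all at most 1.89e-07. Ppp1r15a, which encodes the eIF2alpha phosphatase subunit GADD34, fell as well, to 11.7 ± 1.56 CPM, against 18.8 ± 0.613 CPM in Control (adjusted p = 9.96e-07). Gdf15 and these genes were read from the same 6 libraries, whose mitochondrial and ribosomal protein shares differed as given above.

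**Figure D3:**
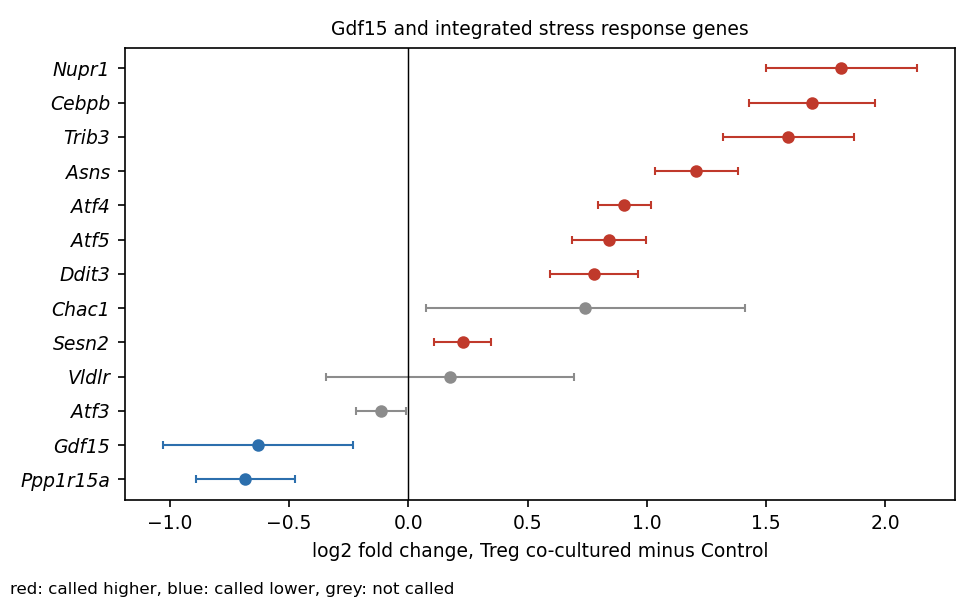
Log2 fold change, Treg co-cultured minus Control, with the 95% interval of the edgeR fit for Gdf15 and 12 tested genes of the integrated stress response. Each row is a gene and colour gives the call. Gdf15 (-0.63) and Ppp1r15a (-0.68), both called lower, and Atf3 (-0.11, not called) lie to the left of 0. Nupr1 (1.82), Cebpb (1.69) and Trib3 (1.59) are furthest to the right.

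Gdf15 lies on chromosome 8, 70629393 to 70632456, minus strand, with no overlapping gene. The window around its upstream start (RefSeq, GRCm38.p6, chr8:70632407-70632706, minus strand) is shown because Gdf15 ran opposite to most of the stress response list. Capitals mark the 50 bases from the start.
Gdf15: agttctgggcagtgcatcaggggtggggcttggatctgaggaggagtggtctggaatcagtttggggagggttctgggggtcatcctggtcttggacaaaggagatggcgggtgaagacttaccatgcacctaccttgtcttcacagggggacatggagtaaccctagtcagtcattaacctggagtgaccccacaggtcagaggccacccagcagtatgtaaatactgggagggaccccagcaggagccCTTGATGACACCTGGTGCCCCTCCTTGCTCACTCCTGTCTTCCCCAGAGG

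The C/EBP-ATF element TGATGNAA was found neither there nor in the window of the other RefSeq start, and 3.97% of all windows hold it. That says only that these letters are not in these windows. RefSeq windows were at hand for 6 of the members, 14 windows in all, but not for Fgf1, Osm or Hbegf. Of the other motifs searched on both strands, TGACGTCA (CRE) was in none of the 14, against 1.79% of all windows, and TATAAA, a core promoter element, in 1, the window of Inhba, against 13.6%. TTCNNNGAA (STAT) was in 1 window of Bdnf, against 8.30% of all windows, and GAAANNGAA (the core of interferon response elements) in 1 window of Bdnf, against 8.56%. AP-1 and C/EBP-ATF matches also occurred in 1 window of Bdnf each. The motifs may overlap one another, and a match is a description of letters.

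Inhba encodes the activin beta-A chain, and activin A made by microglia is known to promote the differentiation of oligodendrocytes in remyelination. It was at 1.54, 1.89 and 2.14 CPM in Treg co-cultured replicates 1, 2 and 3, against 1.22, 1.62 and 2.15 CPM in Control replicates 1, 2 and 3. The groups overlapped over nearly their whole range. A log2 fold change of 0.16 ± 0.28 (SE) was fitted, with a 95% interval of -0.41 to 0.72 and an adjusted p of 0.671. Without Control replicate 1 the estimate was -0.04. Inhba lies on chromosome 13, 16011851 to 16031621, plus strand, and shares no exonic base with the genes that overlap it.

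The other activin chain changed. Inhbb, which encodes the beta-B chain, rose to 1.73 ± 0.247 CPM in Treg co-cultured microglia, against 0.511 ± 0.125 CPM in Control (3.38-fold, adjusted p = 1.04e-04 with edgeR). The activin type II receptor Acvr2b fell to 2.75 ± 0.409 CPM, against 5.46 ± 0.722 CPM (1.98-fold lower, adjusted p = 2.33e-05), while Acvr2a was at 7.66 ± 0.201 CPM, against 8.71 ± 0.515 CPM, and was not called (adjusted p = 0.220). The type I receptor Acvr1b was at 56.6 ± 3.80 CPM, against 50.3 ± 3.28 CPM. It was called higher (log2 fold change 0.17, adjusted p = 0.0295), but not with upper-quartile scaling (0.217), library totals (0.185) or DESeq2 (0.0788). It was also not called without Treg co-cultured replicate 1 (0.137), Treg co-cultured replicate 3 (0.0995), Control replicate 1 (0.193) or Control replicate 2 (0.0681). Acvr1c had no count in Control and at most 0.189 CPM after co-culture. The activin antagonists Fst and Fstl3 and the inhibin chain Inha did not pass the filter on low counts. Pcsk7, a proprotein convertase of the furin family that cleaves precursors, rose 1.72-fold to 70.3 ± 2.10 CPM, against 40.9 ± 0.842 CPM in Control (adjusted p = 5.77e-13). Over all 21 genes listed for activation, release or inhibition of the members, 13 were tested. Of these 5 were called higher (38.5%, against 25.9% of all genes tested), 6 lower (46.2%, against 25.0%) and 2 did not pass. Their median log2 change was -0.12, against -0.01 over all genes tested.

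Bdnf was among the lowest members. BDNF acts through TrkB to support neurons and synapses. It had 12, 8 and 9 counts in Treg co-cultured replicates 1, 2 and 3, against 7, 7 and 7 counts in Control replicates 1, 2 and 3. Scaled to depth these were 0.561, 0.379 and 0.438 CPM, against 0.317, 0.404 and 0.321 CPM, and the groups overlapped. Only co-cultured replicate 1 reached 10 counts, so Bdnf stood just above the near-floor limit and below the filter. The ratio of summed counts was 1.34, with a 95% counting interval of 0.738 to 2.47. In edgeR without a filter the adjusted p was 0.656 for Bdnf and 0.674 for Fgf2, and in DESeq2 0.728 and 0.758. Bdnf lies on chromosome 2, 109674700 to 109727007, plus strand, and shares 896 of its 6217 exonic bases with the antisense gene Gm45346, so some of its few reads may come from that gene.

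The receptors of BDNF differed widely in level. Sort1, which encodes sortilin, a sorting receptor for BDNF and its precursor, fell to 128 ± 3.35 CPM, against 362 ± 17.9 CPM in Control (2.83-fold lower, adjusted p = 2.88e-22 with edgeR). Ntrk2, which encodes TrkB, was at 3.09 ± 0.649 CPM, against 2.93 ± 1.16 CPM (adjusted p = 0.884), with a sign that changed with the scaling. Ngfr, the p75 receptor, was at 1.35 ± 0.0627 CPM, against 0.981 ± 0.119 CPM (adjusted p = 0.247). Over all 20 receptors of the members 17 were tested. Of these 3 were called higher (17.6%, against 25.9% of all genes tested), 6 lower (35.3%, against 25.0%) and 8 did not pass. Their median log2 fold change was 0.05, against -0.01 over all genes tested. DESeq2 called 1 receptor higher and 3 lower, and the analysis without Control replicate 2 gave the same numbers. Without Treg co-cultured replicate 1, and likewise without Treg co-cultured replicate 3, 1 receptor was called higher.

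Compared per gene length, with the authors' FPKM (fragments per kilobase of gene, scaled to depth), the members spanned a wide range. In Treg co-cultured microglia the order of mean levels was Hgf (9.53 ± 0.80 FPKM), Osm (7.63 ± 1.71), Gdf15 (2.68 ± 0.90), Fgf1 (2.57 ± 0.21), Hbegf (1.55 ± 0.02), Inhba (0.928 ± 0.155), Lif (0.344 ± 0.146), Fgf2 (0.162 ± 0.077) and Bdnf (0.105 ± 0.021). The libraries of Hgf and Osm, of Gdf15 and Fgf1, of Lif and Fgf2, and of Fgf2 and Bdnf overlapped there. In Control the order was Hgf (16.8 ± 1.29 FPKM), Osm (6.68 ± 0.90), Gdf15 (4.32 ± 0.77), Hbegf (2.80 ± 0.42), Inhba (0.869 ± 0.240), Fgf1 (0.765 ± 0.066), Fgf2 (0.239 ± 0.086), Lif (0.113 ± 0.039) and Bdnf (0.0832 ± 0.0117). Only the neighbours Inhba and Fgf1, and Lif and Bdnf, overlapped in Control. Hgf thus stood clear of Osm in Control but not after co-culture, and Fgf1 ranked 4 among the members after co-culture, against 6 in Control. The FPKM values imply a length of 1240 bases for Fgf2, against 4026 for Lif and 4266 for Bdnf. By CPM, Fgf2 was the lowest member in both groups, at 0.206 CPM after co-culture and 0.289 CPM in Control. In CPM, Bdnf was at 0.459 and 0.347 and Lif at 1.42 and 0.446. The rank of Fgf2 above Bdnf, and above Lif in Control, thus depends on these lengths. These ranks were not tested.

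**Figure D4:**
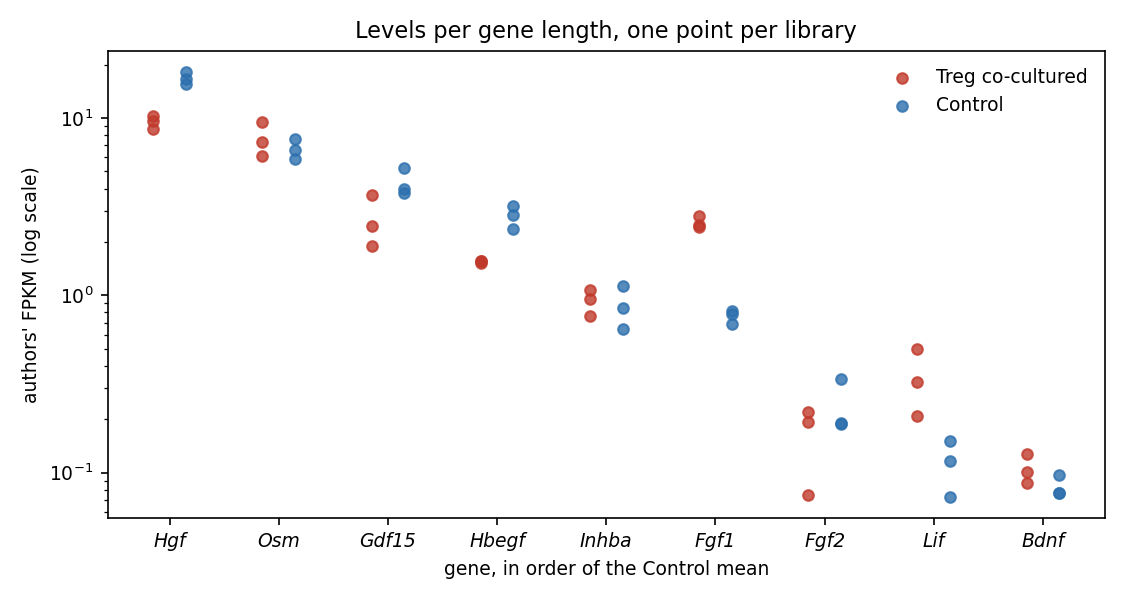
Levels of the 9 genes per gene length, in the authors' FPKM on a log axis, with 1 point per library and genes in order of their Control mean. Treg co-cultured libraries are on the left of each pair and Control libraries on the right. Hgf (9.53 and 16.8 FPKM on average) is at the top in both groups and Bdnf (0.105 and 0.0832 FPKM) at the bottom. By CPM, which is not divided by length, Fgf2 was the lowest member in both groups.

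Other neurotrophic and glial growth factors changed in both directions. Of 18 on the list 9 were tested. Of these 3 were called higher and 3 lower (33.3% each, against 25.9% and 25.0% of all genes tested), and 3 did not pass. The median log2 change of the 9 was 0.08, against -0.01 over all genes tested. Gdnf, a survival factor for dopaminergic and motor neurons, rose to 3.11 ± 0.635 CPM, against 1.56 ± 0.370 CPM in Control (2.00-fold, adjusted p = 8.74e-04 with edgeR). Grn, which encodes progranulin, rose to 3788 ± 129.8 CPM, against 2499 ± 69.4 CPM (1.52-fold, adjusted p = 7.58e-12). Igf1, an abundant microglial growth factor for neurons and oligodendrocytes, fell to 1163 ± 10.6 CPM, against 1760 ± 49.7 CPM in Control (1.51-fold lower, adjusted p = 4.20e-12). Igf2 fell to 0.254 ± 0.0326 CPM, against 1.95 ± 0.824 CPM (adjusted p = 9.23e-07), and Psap, which encodes prosaposin, to 8684 ± 148 CPM, against 9900 ± 462 CPM (adjusted p = 0.00293). Ptn, pleiotrophin, was called higher at 2.17 ± 0.497 CPM, against 1.32 ± 0.579 CPM (adjusted p = 0.0468). That call was lost with upper-quartile scaling (0.0755), library totals alone (0.0754) and DESeq2 (0.149). It was also lost in the limma fits of FPKM with pseudocounts of 0.1 (0.087) and 1 (0.0828). The same held without Treg co-cultured replicate 2 (0.248), without Control replicate 1 (0.271) and without Control replicate 2 (0.105).

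Relatives of the members in the FGF, EGF, interleukin-6 and activin families were mostly below the filter on low counts. Of 32 listed, 4 had no count in any library and 13 were tested. Of these 3 were called higher and 3 lower (23.1% each, near the 25.9% and 25.0% of all genes tested), and 7 were not called. Gdf3, a TGF-beta superfamily ligand, rose to 9.07 ± 0.737 CPM, against 3.62 ± 0.0781 CPM in Control (2.51-fold, adjusted p = 2.79e-09 with edgeR). Bmp2, a bone morphogenetic protein, rose to 80.4 ± 3.79 CPM, against 52.9 ± 2.18 CPM (1.52-fold, adjusted p = 1.91e-10). Fgf13, an intracellular relative that is not secreted, fell to 4.01 ± 0.878 CPM, against 15.9 ± 1.33 CPM (3.94-fold lower, adjusted p = 7.00e-14).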

How the data were processed

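Per the labels' protocols, cDNA was made from Trizol-extracted RNA with the SMART-Seq HT kit and tagmented with Nextera XT. STAR, HTSeq 0.11.2 and the build GRCm38 are named, per the submitters' processing notes. Nothing used here gives the annotation release or the counting options, strand included. The authors deposited raw read counts per gene on a sheet with Ensembl identifiers, used here in place of the sheet first planned because its columns name the samples, and on a sheet of gene names, whose counts were equal for all 9 members. The authors deposited FPKM values, which implied a constant length per gene for 12011 of 12011 genes checked (relative tolerance 1e-05).

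edgeR 4.0.16 (R 4.3.3) kept 13274 genes with filterByExpr (minimum count 10), scaled libraries by TMM and ran the two-sided robust quasi-likelihood F-test with group as the only term. P values were adjusted by Benjamini-Hochberg over all genes tested. SE is the log2 fold change divided by the root of F. Alternatives used DESeq2 1.42.0, limma 3.58.1 and other scalings, filters and sample sets. Counting intervals are exact binomial (Clopper-Pearson) at 95% on counts summed over libraries, and cover counting error only. PCR reads carry no molecular identifiers, so the intervals may be too narrow even for counting error.

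Named genes are all members, all receptors, and up to 4 genes called in each direction per list, by size, with at least 1 CPM in the higher group. Adam17, S100a13, Fibp, Egf, Atf4, Ddit3, Hgfac, Atf3, Chac1, Vldlr, Ccr2 and genes named for having no or few counts were added after their values were seen. The members and lists were chosen with earlier results of these data known. Coordinates are from GENCODE M21 and count from 1. Promoter windows are from RefSeq.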

Additional observations from a re-analysis of the deposited data

How the results depend on the processing

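Under 16 alternatives the direction of the 5 called members never changed, and the calls of Fgf1, Lif, Hgf and Hbegf held in all of them. Gdf15 lost its call in 2 and Osm gained one in 2, as given with those genes. Inhba, not called, changed sign without Control replicate 1 (-0.036), and ranged from -0.036 to 0.399 when libraries were left out. Ntrk2, not called, was at -0.023 under upper-quartile scaling and at -0.016 when only library totals were used. It was at -0.124 without Treg co-cultured replicate 1 and between -0.199 (without Control replicate 2) and 0.343 when libraries were left out. Numbers of all genes called were within 1.5 times of those reported in every alternative. No sign was seen that replicate numbers pair the samples. Deviations of same-numbered libraries from their group means correlated at -0.03, -0.02 and -0.03, and no library correlated best with its own number. With all such correlations near 0, this check cannot show that the samples were unpaired. With the replicate block 3448 genes were called higher and 3307 lower, and 2 and 3 of the members, while Fgfr3 lost its call (adjusted p = 0.0609 with edgeR). Depth limits Bdnf and Fgf2, whose counting intervals given above include both a fall and a rise and leave out the spread between replicates.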

Other observations

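The members did not move together among the libraries of a group. Within the Control group, replicate 3 had the highest level of 5 members, Lif, Osm, Hbegf, Gdf15 and Inhba, and the lowest of 3, Fgf1, Fgf2 and Hgf. Within the Treg co-cultured group, replicate 1 was lowest for 5 members, Fgf1, Osm, Hbegf, Gdf15 and Inhba, and replicate 2 was highest for Fgf1, Osm and Gdf15 and lowest for Bdnf, Fgf2, Hgf and Lif. Osm, Hbegf, Gdf15 and Inhba were thus lowest in the same co-cultured library and highest in the same control library. For Hbegf the co-cultured libraries were nearly equal (3.74, 3.79 and 3.79 CPM in replicates 1, 2 and 3), so its rank there says little. With 3 libraries a group this is a description only, and it was noticed after the values were seen.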
